A study of Mus musculus with 3 samples.

Results

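Imprinted genes are read from the copy inherited from one parent, because the other copy carries DNA methylation or a repressive chromatin state set in the germ line. They lie in clusters, each held in place by an imprinting control region, and many code for growth regulators of the fetus or for long non-coding RNAs that silence their neighbours. The genes described here are 39 mouse imprinted genes, listed as a known family, without the growth factor gene Igf2 and its receptor gene Igf2r. Probe sets (groups of short oligonucleotides on the array that report one transcript) were taken where the platform annotation gave one of these symbols alone. That gave 96 of 34945 probe sets with 1 symbol, covering 34 of the 39 genes. The other 5 members, H19, Rtl1, Dio3, Slc22a3 and Zrsr1, had no such probe set and were not part of the counts. A probe set that H19 shares with Mir675 is described near the end.

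The series profiled 1 group of cells with 3 Affymetrix arrays. Each array received RNA from a pool of about 20 kidneys of E15.5 fetuses (Theiler stage 23) on the CD-1 background carrying the transgene Tg(Meis1-EGFP)FO156Gsat, from which cells positive for the green fluorescent protein were sorted. The transgene reports Meis1, a homeobox gene of the kidney stroma, so the sort collects whatever cells carried the reporter at that age. Fetal sex was not recorded, no unsorted kidney or reporter-negative fraction was measured, and the arrays do not tell parental alleles apart. The labels call the cells both peripheral blastema and nephrogenic interstitium, the latter being stroma.

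Each array had its own background level, set at the 95th percentile over 71 genes of chemosensory receptors, which sensory cells use. They were taken by symbol from the olfactory, vomeronasal and trace amine-associated receptor families. These levels were signals of 136, 186 and 169 in replicates 1, 2 and 3. Genes with several probe sets were read from the brightest one (highest mean log2 signal), and the distance of a gene is the log2 signal minus the level of the same array, averaged over the arrays. A gene was called above background where limma's one-sided test of this distance gave an adjusted p (Benjamini-Hochberg, over all 18193 genes) under 0.05. All 14 listed markers of the nephrogenic interstitium were called, among them Foxd1 (distance 7.46 ± 0.21, SE, n = 3) and Meis1 (6.83 ± 0.21). The sort used the reporter of Meis1, so the Meis1 call is not separate evidence of what the cells are. Of 10 cap mesenchyme markers 8 were called, with Six2 at 1.85 ± 0.20, and Cited1 was not (-4.21 ± 0.19). These 10 had a median distance of 3.02 and reached 7.36 ± 0.20 in Gdnf, so cap mesenchyme signal was present. Markers of other cells were called in 5 of 10 cases for ureteric bud, 1 of 9 for early nephron and tubule, 6 of 8 for endothelium, 0 of 7 for red cells, 1 of 8 for macrophages and leukocytes, 3 of 7 for neural cells, 2 of 5 for adrenal cortex, 0 of 6 for skeletal muscle and 0 of 3 for placenta. The part of these cells in the values below was not tested, and in such pooled cells fewer cells of a type and less RNA per cell cannot be told apart.

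Of the 34 imprinted genes, 24 were above background (70.6%), against 57.3% of all genes tested. Their median distance was 3.05 log2 units, against 1.51 over all genes. Every array placed the signal above its level for 25 members (59.2% of all genes) and below it for 5 (33.2% of all genes). Counted by probe set, 48 of 96 were above background (50%), against 48.6% of all 34945 probe sets. The higher share by gene was therefore not seen by probe set. Imprinted genes with more than 1 probe set were called in 17 of 20 cases (75.7% of all such genes), and those with 1 probe set in 7 of 14 cases (39.2% of all such genes). Distances of different genes are not ranked here, because probe sets differ in affinity, and a gene that was not called is not shown to be silent.

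**Figure D1:**
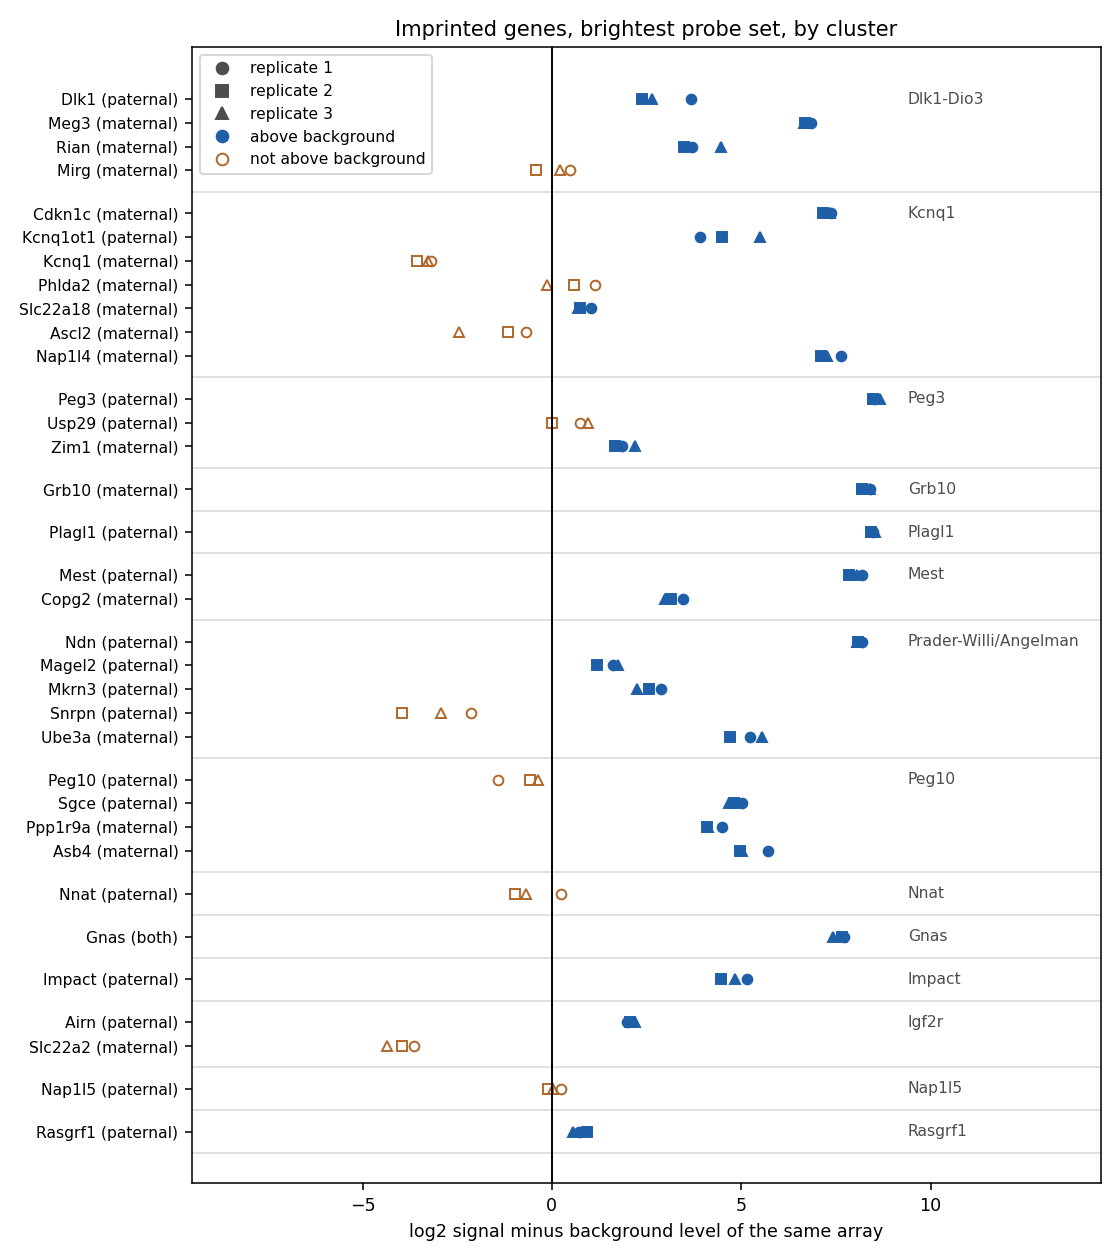
Distance of each imprinted gene from background on each array (x axis, log2 signal minus the level of the same array) for the brightest probe set of 34 genes, grouped by cluster, with the parental allele expressed in brackets. Circles, squares and triangles are replicates 1, 2 and 3; filled blue symbols mark the 24 genes called above background and open brown symbols the 10 that were not.

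Promoters of this family illustrate the sequence that imprints rest on. In the germline control regions of Mest (also called Peg1), Plagl1, Nnat and Nap1l5, the promoter of the maternal copy is methylated and the paternal copy is read. The zinc finger protein Zfp57 keeps such methylation through early development by binding the methylated hexamer TGCCGC. The bases before the annotated start of these genes are printed from RefSeq (GRCm38.p6, 5′ to 3′ on the strand of the gene), with each TGCCGC or its reverse complement GCGGCA in capitals. They were chosen because all have this promoter type, while Mest and Plagl1 were above background and Nnat and Nap1l5 were not.
Mest (chr6:30737800-30738049, plus strand): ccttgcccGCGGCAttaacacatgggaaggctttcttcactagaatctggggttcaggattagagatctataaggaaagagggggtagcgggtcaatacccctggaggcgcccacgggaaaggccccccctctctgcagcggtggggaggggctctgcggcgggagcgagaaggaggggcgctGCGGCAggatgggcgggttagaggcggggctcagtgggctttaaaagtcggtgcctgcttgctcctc
Plagl1 (chr10:13090582-13090831, plus strand): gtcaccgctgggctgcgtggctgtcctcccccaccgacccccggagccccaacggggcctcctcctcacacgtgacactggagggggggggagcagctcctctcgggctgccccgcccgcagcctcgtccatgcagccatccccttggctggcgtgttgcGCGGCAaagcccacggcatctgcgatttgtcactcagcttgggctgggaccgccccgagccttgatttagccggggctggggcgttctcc
Nap1l5 (chr6:58907127-58907376, minus strand): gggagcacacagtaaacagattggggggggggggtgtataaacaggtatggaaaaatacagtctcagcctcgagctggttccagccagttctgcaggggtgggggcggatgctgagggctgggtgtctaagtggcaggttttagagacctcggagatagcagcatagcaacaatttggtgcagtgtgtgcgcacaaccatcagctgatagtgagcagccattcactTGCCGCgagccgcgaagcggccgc
Nnat (chr2:157559828-157560077, plus strand): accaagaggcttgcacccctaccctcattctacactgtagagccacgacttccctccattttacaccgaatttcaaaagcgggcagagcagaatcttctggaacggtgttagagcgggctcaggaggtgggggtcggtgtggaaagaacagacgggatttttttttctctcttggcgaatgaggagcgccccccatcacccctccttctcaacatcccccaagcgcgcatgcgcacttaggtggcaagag

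In these stretches of 250 bases the hexamer occurred 2 times before Mest, 1 time before Plagl1, 1 time before Nap1l5 and 0 times before Nnat. With the 50 bases after the start, Nap1l5 had 2 and Nnat had 1, so each of the 4 genes held it, and a window at another annotated start of Mest had 0. The whole windows, which run from 250 bases before to 50 bases after the start, held it in 10 of 31 imprinted genes with a window (32.3%), against 13.1% of the 27025 genes in the promoter table. It was present for 6 of 20 imprinted genes above background and for 4 of 8 that were not. By allele, 5 of 14 maternally expressed genes (35.7%) and 5 of 16 paternally expressed genes (31.3%) held it, so it did not mark the paternally expressed ones. The median number of CG dinucleotides in a window was 14 for the imprinted genes and 7 for all genes. The hexamer itself contains a CG, and the part of CG content in its higher share was not tested. A match is a description of letters and does not show binding, and no methylation was measured.

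Plagl1, the zinc finger factor also known as Zac1, had signals of 49066, 63497 and 63064 in replicates 1, 2 and 3. All arrays were far above their levels, with a distance of 8.48 ± 0.19 log2 units (SE, n = 3; 358-fold; limma adjusted p = 1.04e-06). Its other probe sets were dimmer and also above background, at 2.34 ± 0.25 and 1.12 ± 0.37. By its name the brightest is of a class with possible cross-hybridisation, and Plagl1 kept its call without such probe sets. Mest, a membrane protein with a hydrolase fold, had signals of 39636, 42840 and 44615 and a distance of 8.02 ± 0.20. Its neighbour Copg2, a coatomer subunit read mainly from the maternal copy, was above background as well (signals 1514, 1638 and 1353, distance 3.20 ± 0.21). Both Mest and Copg2 rest on 1 probe set.

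Nnat, a small membrane proteolipid of neurons, pancreas and fat, had signals of 160, 95.3 and 105. Replicate 1 was just over its level and the others were below, so the distance was -0.47 ± 0.29 and Nnat was not called. Nap1l5, a nucleosome assembly protein, had signals of 160, 172 and 173, close to the levels on every array (distance 0.05 ± 0.20; limma adjusted p = 0.654). Each of these genes rests on 1 probe set. Of the neural markers Tubb3, Stmn2, Elavl4, Dbh, Sox10, Th and Snap25, Stmn2, Elavl4 and Dbh were above background (3 of 7).

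The Peg3 cluster held a gene far above background beside one that was not called. Peg3, a paternally expressed zinc finger protein, had signals of 49827, 66044 and 68633 and a distance of 8.55 ± 0.20 (SE, n = 3; 375-fold; limma adjusted p = 1.04e-06). Usp29, a ubiquitin protease also read from the paternal copy, had signals of 227, 186 and 325. These exceeded the levels, in replicate 2 only barely, and the distance of 0.56 ± 0.26 did not pass (limma adjusted p = 0.0643). Its second probe set gave 0.53 ± 0.23. Usp29 passed in 7 of 13 alternatives, among them without replicate 2 (0.84), so its call depends on the processing. Zim1, a maternally expressed zinc finger gene next to Peg3, was above background (signals 494, 585 and 775, distance 1.90 ± 0.21).

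Peg3 and Usp29 start from one shared promoter and run in opposite directions, with no annotated gene between them. The 163 bases between their annotated starts (chr7:6730420-6730582, plus strand, GRCm38.p6) are shown because both transcripts begin at its ends, with Usp29 leaving to the right. The stretch holds 5 CG dinucleotides and 0 copies of the hexamer, so it has no capitals.
Peg3 and Usp29: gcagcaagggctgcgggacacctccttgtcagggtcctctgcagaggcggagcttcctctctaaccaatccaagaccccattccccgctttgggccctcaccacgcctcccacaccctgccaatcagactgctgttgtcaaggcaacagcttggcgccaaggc

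Of the 5 Peg3 probe sets, 3 were above background, the others at 4.40 ± 0.25 and 4.28 ± 0.29. The remaining 2 lay at -5.58 ± 0.26 and -6.07 ± 0.41, with signals under 5 on every array.

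**Figure D2:**
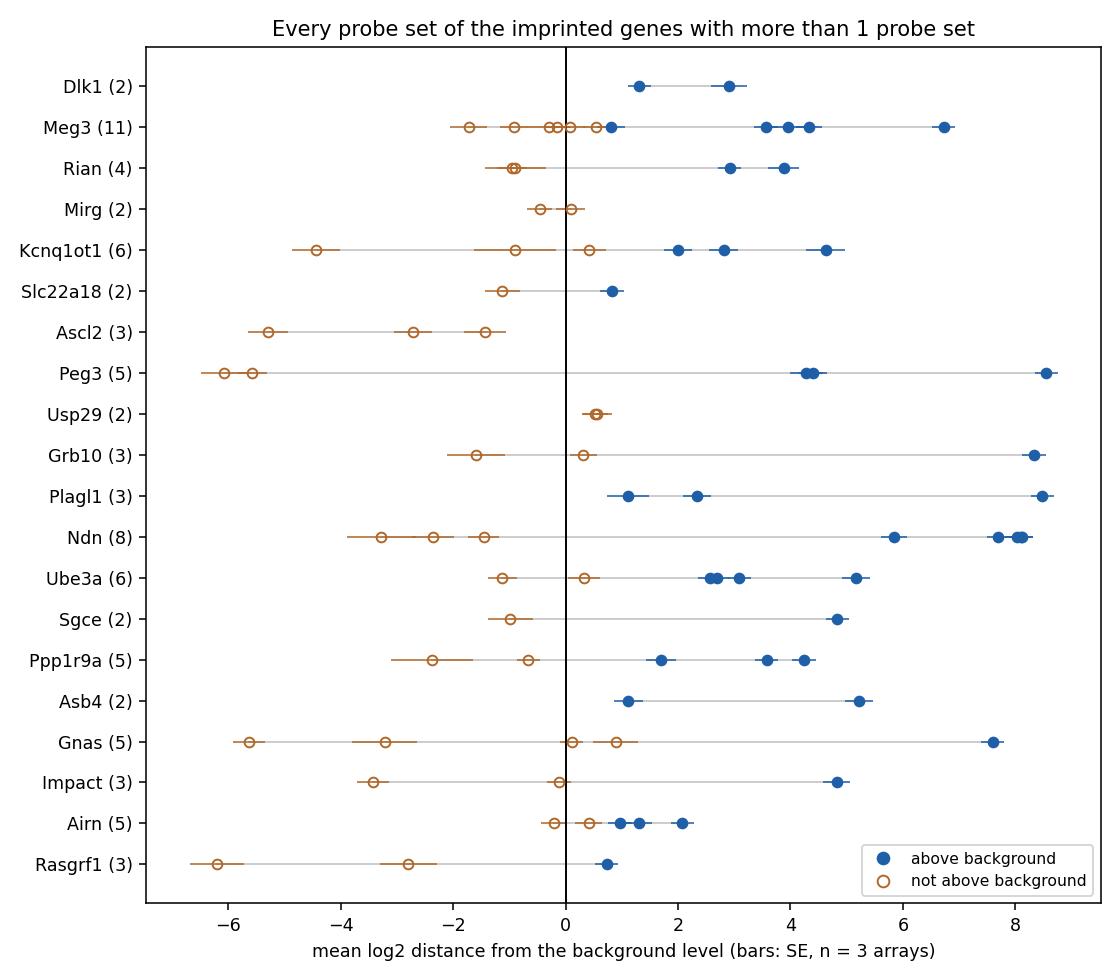
Mean distance from background (x axis, log2 units; bars are the SE over 3 arrays) of every probe set of the 20 imprinted genes with more than 1 probe set, whose number stands in brackets. Filled blue points are above background and open brown points are not; 14 of the 20 genes have both kinds, 3 have all probe sets above background and 3 have none.

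The Dlk1-Dio3 cluster makes the protein-coding genes Dlk1, Rtl1 and Dio3 from the paternal copy and a chain of non-coding RNAs, Meg3, Rian and Mirg, from the maternal copy. Dlk1, a membrane protein with EGF repeats related to the Notch ligands, had signals of 1750, 974 and 1057. Replicate 1 was the highest, and all arrays exceeded their levels (distance 2.90 ± 0.30; limma adjusted p = 0.000114). Its second probe set lay at 1.31 ± 0.20. The brighter is of possible cross-hybridisation, and Dlk1 kept its call without such probe sets. Meg3, a long non-coding RNA, had signals of 15609, 19042 and 17143 and a distance of 6.73 ± 0.20 (106-fold; limma adjusted p = 1.04e-06). Of its 11 probe sets, 5 were above background, the others of these at 4.33, 3.96, 3.56 and 0.81, and the 6 not above it ran from -1.72 to 0.54. The brightest is again of possible cross-hybridisation, and Meg3 kept its call without such probe sets.

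Rian, which hosts box C/D small nucleolar RNAs, had signals of 1765, 2067 and 3746 and a distance of 3.88 ± 0.26. Its second called probe set lay at 2.92 ± 0.21, and the other 2 at -0.89 and -0.96. Mirg, the next transcript along and host of a large microRNA group, had signals of 190, 139 and 197. The arrays fell on both sides of their levels, and neither of its 2 probe sets was above background (0.09 ± 0.25 and -0.46 ± 0.22). So 3 of the 4 measured genes of this cluster were called (75%, against 57.3% of all genes). Of these, 1 was paternally and the others maternally expressed.

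Several of these transcripts are the source of microRNAs, which these arrays did not measure. RefSeq places 3 mature microRNAs within Meg3, 6 within Rian, 19 within Mirg and 2 within Mest on the same strand. A pair from each called host is printed to show what these transcripts carry, with the seed, bases 2 to 8, in capitals. No seed is shared among those printed.
Meg3, miR-770-5p: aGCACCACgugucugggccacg
Meg3, miR-770-3p: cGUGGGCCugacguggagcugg
Rian, miR-341-3p: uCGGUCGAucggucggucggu
Rian, miR-370-3p: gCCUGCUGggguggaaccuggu
Mest, miR-335-5p: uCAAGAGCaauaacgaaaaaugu
Mest, miR-335-3p: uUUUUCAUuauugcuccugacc

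The Kcnq1 cluster had 4 of 7 genes above background (57.1%), about the share of all genes (57.3%). Cdkn1c, a cyclin-dependent kinase inhibitor that restrains growth of the embryo and is needed for kidney medulla formation, had signals of 22471, 26666 and 27374 and a distance of 7.29 ± 0.20 (156-fold; limma adjusted p = 1.04e-06). Kcnq1ot1, the paternally expressed antisense RNA that silences the cluster in cis, had signals of 2048, 4206 and 7575. All were above their levels, but they differed 3.70-fold between replicates 3 and 1 (distance 4.63 ± 0.33; limma adjusted p = 1.85e-05). Of its 6 probe sets, 3 were above background, the others of these at 2.81 ± 0.26 and 2.00 ± 0.25, and the rest lay between -4.44 and 0.43. Kcnq1, the potassium channel gene that this RNA overlaps, had signals of 15.0, 15.6 and 17.5, below the level on every array (-3.34 ± 0.20).

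Nap1l4, a nucleosome assembly protein imprinted in placenta, had signals of 27040, 25691 and 25921 and a distance of 7.33 ± 0.21. Slc22a18, a transporter-like protein, lay close to the limit of detection with signals of 281, 311 and 274 (0.83 ± 0.20; limma adjusted p = 0.00683). Its other probe set lay at -1.13 ± 0.31. The call was lost without replicate 3 (0.89), at the 99th percentile (0.35) and with the mean over probe sets (0.06). Phlda2, which limits placental growth, had signals of 301, 277 and 155, with replicate 3 below its level (0.53 ± 0.29; limma adjusted p = 0.105). A level from the 90th percentile let it pass (0.88), as did leaving out the dimmest genes (0.53). Ascl2, a trophoblast transcription factor, had all 3 probe sets below the level on every array, the brightest at -1.43 ± 0.36. The 3 measured placenta markers were below the level on every array, and a link between them and these genes was not tested.

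In the Prader-Willi/Angelman region 4 of 5 genes were above background (80%, against 57.3% of all genes). Ndn, a growth-restraining MAGE protein, had signals of 40097, 50787 and 44713 and a distance of 8.11 ± 0.19 (277-fold; limma adjusted p = 1.04e-06). Of its 8 probe sets 5 were above background, between 5.84 and 8.11, and 3 were not, between -3.28 and -1.46. For Ndn the brightest probe set is of possible cross-hybridisation, and another, not of this class, lay at 8.02 ± 0.20. Magel2, its relative and direct neighbour, had signals of 414, 424 and 572 (1.52 ± 0.22), and Mkrn3, a RING finger protein next along, 1004, 1095 and 810 (2.57 ± 0.22). Ube3a, a ubiquitin ligase that is imprinted in neurons and read from both copies elsewhere, had signals of 5150, 4834 and 7940 (5.16 ± 0.24), with 4 of 6 probe sets above background, the others of these between 2.56 and 3.09. The 1 probe set annotated to Snrpn alone, which encodes a spliceosomal protein, had signals of 31.0, 12.0 and 22.3 and was below the level on every array (-3.01 ± 0.37). The rule set aside 6 probe sets annotated to Snurf and Snrpn together, of which 2 were above background (4.92 ± 0.21 and 1.51 ± 0.30), so Snrpn is not shown to be undetected.

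In the Peg10 cluster 3 of 4 genes were above background (75%, against 57.3% of all genes). Asb4, a maternally expressed ankyrin repeat protein, had signals of 7073, 5804 and 5497 (5.23 ± 0.24), with its second probe set at 1.12 ± 0.25. Sgce, the paternally expressed epsilon-sarcoglycan, had signals of 4395, 5228 and 4356 (4.84 ± 0.20), and its second probe set lay at -0.98 ± 0.40. Ppp1r9a, which encodes the actin-binding protein neurabin, had signals of 3086, 3203 and 2949 (4.24 ± 0.21), with 3 of 5 probe sets above background, the others of these at 3.58 ± 0.21 and 1.70 ± 0.26. Peg10, a gene derived from a retrotransposon that neighbours Sgce, had signals of 50.9, 125 and 130 and was below the level on every array (-0.79 ± 0.27). It rests on 1 probe set.

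Grb10, an adaptor that damps signalling by the insulin and IGF1 receptors and is maternally expressed outside neurons, had signals of 46121, 54166 and 57421. The arrays lay close together at a distance of 8.33 ± 0.20 (SE, n = 3; 322-fold; limma adjusted p = 1.04e-06), although its other probe sets were not called (0.32 ± 0.24 and -1.60 ± 0.51). Gnas, which encodes the stimulatory G protein alpha subunit and further transcripts of one or the other parental copy, had signals of 28449, 37867 and 28919 (7.60 ± 0.20). Of its 5 probe sets 1 was above background, the others running from -5.63 to 0.90, and the call was lost without probe sets of possible cross-hybridisation (0.90) and with the mean over probe sets (0.16). Which Gnas transcript each probe set reads was not established here. Impact, a paternally expressed inhibitor of the Gcn2 kinase, had signals of 4844, 4135 and 4826 (4.82 ± 0.22), with its other 2 probe sets at -0.12 and -3.43.

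The Igf2r cluster held Airn, the paternally expressed antisense RNA that represses its neighbours, with signals of 538, 773 and 777. All arrays were above their levels (2.08 ± 0.20, limma adjusted p = 6.95e-05). Of the 5 Airn probe sets 3 were above background, the others of these at 1.30 ± 0.23 and 0.97 ± 0.22. Slc22a2, an organic cation transporter imprinted in placenta, had signals of 11.0, 12.0 and 8.35, below the level on every array (-3.98 ± 0.23). Rasgrf1, a Ras exchange factor of brain, had signals of 223, 353 and 250 and a distance of 0.73 ± 0.20 (limma adjusted p = 0.0113). The other 2 Rasgrf1 probe sets lay at -2.79 and -6.20. The call was lost at the 99th percentile (0.25) and without replicate 2 (0.63) or 3 (0.82), and the value was below background with the mean over probe sets (-2.55) or without probe sets of possible cross-hybridisation (-2.79).

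By parental allele, 11 of 16 maternally expressed genes were above background (68.8%, median distance 3.54) and 12 of 17 paternally expressed genes (70.6%, median distance 2.57). Over all genes the share was 57.3%. Gnas, which makes transcripts of both kinds, was counted apart, and Ube3a was counted as maternal although it is read from both copies outside neurons. Nap1l4 and Slc22a2, described above as imprinted in placenta, were counted as maternal too. The grouping follows the listed allele, and whether it holds in these cells was not measured. The counts in the groups were close, and no test between them was made. Among maternally expressed genes the 5 not called were Mirg, Kcnq1, Phlda2, Ascl2 and Slc22a2, and among paternally expressed genes they were Usp29, Snrpn (by its 1 probe set of single symbol), Peg10, Nnat and Nap1l5. Genes of either kind were called within the same cluster in the Dlk1-Dio3, Kcnq1, Peg3, Mest and Peg10 regions, as with Cdkn1c and Kcnq1ot1. With Ube3a counted as maternal, beside Ndn, Magel2 and Mkrn3, this held for the Prader-Willi/Angelman region too.

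**Figure D3:**
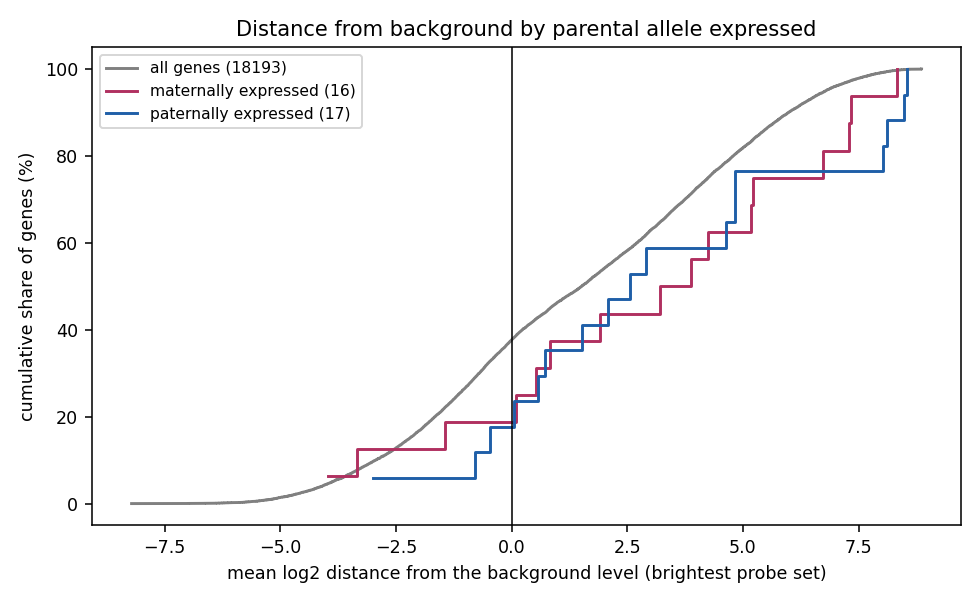
Cumulative share of genes (y axis, percent) by mean distance from background (x axis, log2 units) for all 18193 genes, 16 maternally expressed and 17 paternally expressed imprinted genes. The curves of the imprinted genes lie mostly to the right of that of all genes (median 3.54 and 2.57 against 1.51) and cross each other.

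The arrays differed in many probe sets of the non-coding members. The 4 called non-coding genes, Meg3, Rian, Kcnq1ot1 and Airn, had 13 called probe sets. Replicate 3 was the highest array for 10 of them and replicate 1 the lowest for 10, against 31.0% and 32.1% of all 16997 called probe sets. The 35 called probe sets of coding members shared part of this order, with replicate 3 highest for 14 (40%) and replicate 1 lowest for 20 (57.1%). Among 238 called probe sets of long non-coding RNA genes outside the members the shares were 36.6% and 39.5%. The difference of replicate 3 from replicate 1 had a median of 0.53 log2 units over the 13 probe sets of non-coding members. It was -0.03 over all called probe sets, 0.18 over those of coding members and 0.05 over those of the non-member long non-coding RNA genes. The 13 probe sets share 4 genes and 3 arrays and are not independent, so no test was made.

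The difference was uneven within a gene. One Meg3 probe set read 1485, 2652 and 4069 in replicates 1, 2 and 3, while another read 1929, 1917 and 1908. The brightest Kcnq1ot1 probe set was 3.70-fold higher in replicate 3 than in replicate 1, and the other called probe sets of this gene 2.31-fold and 1.43-fold. Centring each array on its median gene gave a like picture, with replicate 3 highest for 11 of the 13 probe sets. The 3′ to 5′ log2 ratio of the Gapdh control, a sign of RNA length, was 5.00, 5.39 and 5.26 in replicates 1, 2 and 3, and that of Actb was 3.04, 3.40 and 3.04. Their part in the result was not tested. Over all called genes the median SD of log2 signal over the arrays was 0.16, and over the 24 called imprinted genes it was 0.20, with Kcnq1ot1 (0.94), Rian (0.57) and Dlk1 (0.46) the most variable.

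**Figure D4:**
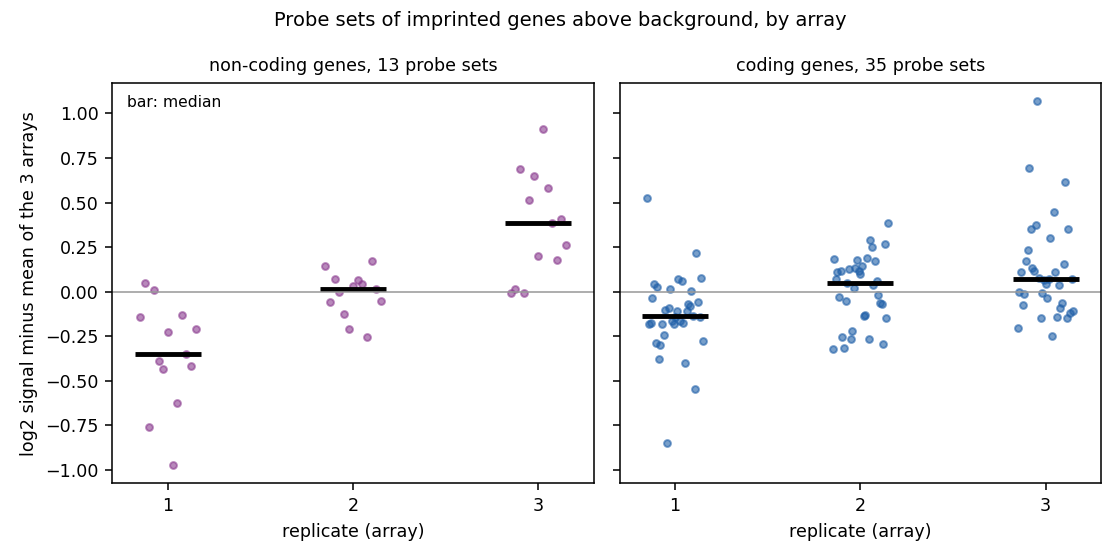
Log2 signal minus the mean of the 3 arrays (y axis) by array (x axis) for the called probe sets of non-coding (left, 13) and coding (right, 35) imprinted genes; each point is 1 probe set and bars are medians. The medians of the non-coding genes were -0.35, 0.01 and 0.39 in replicates 1, 2 and 3, and those of the coding genes -0.14, 0.05 and 0.07.

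Genes listed for imprint control were above background in 17 of 21 cases (81.0%, against 57.3% of all genes). The list holds the Tet oxidases of methylcytosine beside genes that set and keep imprints. Of all genes with more than 1 probe set 75.7% were called, and of those with 1 probe set 39.2%. Neither this list nor those below were matched for the number of probe sets. The maintenance methyltransferase Dnmt1 lay at 6.80 ± 0.21, its partner Uhrf1 at 6.92 ± 0.22, and the de novo enzymes Dnmt3a at 6.57 ± 0.20 and Dnmt3b at 4.96 ± 0.21. The corepressor Trim28 lay at 7.37 ± 0.22, and Ctcf, which insulates the H19 and Igf2 locus, at 6.90 ± 0.21. Of the zinc finger proteins that bring Trim28 to control regions, Zfp445 was called (6.34 ± 0.20) and Zfp57 was not, with signals of 133, 154 and 260 (0.11 ± 0.25; limma adjusted p = 0.561). The germ-cell cofactor Dnmt3l (-2.17 ± 0.52), the oocyte factor Dppa3 (-1.91 ± 0.46) and Tet3, an oxidase of methylcytosine (-4.07 ± 0.32), were the others not called. Zfp57, Dnmt3l, Dppa3 and Tet3 rest on 1 probe set each.

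Imprinted genes outside the 39 were called in 26 of 37 cases (70.3%, against 57.3% of all genes). Igf2, the fetal growth factor, lay at 7.06 ± 0.19, and Igf2r, the receptor that removes it, at 4.50 ± 0.26. Cd81 and the amino acid transporter Slc38a4 lay at 7.68 ± 0.19 and 7.12 ± 0.20, Blcap at 4.77 ± 0.20 and Sfmbt2 at 2.13 ± 0.20 (-0.30 as a mean over its probe sets). Ins2 (-0.24 ± 0.19), Th (-0.52 ± 0.22) and Tnfrsf23 (-0.85 ± 0.28) were among the 11 not called.

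Among the partners of imprinted products, 15 of 22 genes were called (68.2%, against 57.3% of all genes). The receptors that Grb10 binds were above background, Insr at 5.13 ± 0.20 and Igf1r at 5.05 ± 0.21, as was their substrate Irs1 (6.69 ± 0.20), while Irs2 lay at -3.72 ± 0.23. Of the thyroid hormone system, in which the unmeasured member Dio3 acts, the receptor Thra was called (4.95 ± 0.24), and Thrb (0.14 ± 0.23), Dio1 (-4.82 ± 0.43) and Dio2 (0.41 ± 0.23) were not, although Dio2 passed in 4 of 13 alternatives. Eif2ak4, the Gcn2 kinase that Impact restrains, lay at 4.70 ± 0.26 and its activator Gcn1 at 2.74 ± 0.27 (-0.32 as a mean over its probe sets). The listed accessory subunits of the Kcnq1 channel were below background, Kcne1 at -1.80 ± 0.25, Kcne2 at -4.10 ± 0.66 and Kcne3 at -4.12 ± 0.46, beside Kcnq1 itself.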

How the data were processed

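The labels' protocols state that the RNA underwent 2 rounds of amplification and was labelled with biotin. The values the authors deposited are intensity values of probe sets (linear, not log), made with GCOS per the submitters' processing notes. Version and signal algorithm were not given in the sources used here. After trimming 2% of probe sets at each end, all arrays had 1 mean, so scaling preceded deposit.

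Of 45101 probe sets, 64 controls, 932 with several symbols and 9160 with none were left out. Symbols followed Entrez ID in a RefSeq table (GRCm38.p6; 34741 of 34945 probe sets matched, none changed). Analysis used limma 3.58.1 in R 4.3.3 (lmFit with an intercept, eBayes) on log2 signal minus background level, without a pseudocount. It ran over 18193 genes and, separately, over 34945 probe sets, and adjusted p-values within each. The procedure was tested on simulated data. SE are moderated (prior df 3.69) and include the spread of the background levels. The SE of dimmer probe sets of a gene come from the fit over probe sets. No label ties the pools to separate litters, and p-values reflect spread between these samples alone, possibly of technical origin. Only 3 arrays limit the precision.

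The members and gene lists were chosen with earlier results of these data known. The rule named every measured member, at least the first 4 called and the first 3 uncalled genes of each list on imprinting, where any other gene could be named too, and the first 2 markers of a cell type. Of cell types other than interstitium and cap mesenchyme counts are given. The neural markers beyond these, and Gdnf of the cap mesenchyme, were named after their values were seen. Alternatives changed the background genes and percentile, a common level, quantile normalization, the value of a gene, the probe sets used, a filter on dim genes, the call rule and the arrays.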

Additional observations from a re-analysis of the deposited data

Results flagged for a closer look

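Some probe sets carry the symbol of an imprinted gene together with another gene and were outside the comparisons above. They were fitted beside the probe sets of single symbols, and 3 of 8 showed signal above the background level. Of all probe sets with 1 symbol 48.6% did. The 1 probe set annotated to Mir675 and H19 had signals of 40512, 53418 and 52343 in replicates 1, 2 and 3 and a distance of 8.22 ± 0.20 log2 units (SE, n = 3; limma adjusted p = 5.98e-06). Of 6 probe sets annotated to Snurf and Snrpn, 2 were above background, 1 at 4.92 ± 0.21 (signals 4344, 4958 and 5496) and 1 at 1.51 ± 0.30 (signals 287, 866 and 399), and 3 were below the level on every array. Where symbols share an RNA or overlap, as Snurf and Snrpn do, a value cannot be given to 1 of the genes. For the probe set of Mir675 and H19, RefSeq places miR-675 within H19, and these arrays did not measure microRNAs. The 1 probe set annotated to Airn and Igf2r was below the level on every array, at -1.10 ± 0.30.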

How the results depend on the processing

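Beside the settings above, 13 others were run, 2 of them chosen after seeing the data (Taar1 added to the background genes, and a level over all chemosensory probe sets). The planned second reading of the background list was not run as such, because that list was not used here. Leaving out replicate 1, 2 or 3 gave 22 to 24 imprinted genes above background, and 42 to 49 of their probe sets, against 9939 to 10380 of all genes. All counts of genes and probe sets stayed within 1.5 times their main value. Of the 24 called genes 21 kept the call in every setting that gave a value, and Slc22a18, Gnas and Rasgrf1 lost it in at least 1. Rasgrf1 fell below background with probe sets averaged (-2.55) and without those of possible cross-hybridisation (-2.79), where its called probe set is left out. Averaging also placed Sfmbt2 (-0.30) and Gcn1 (-0.32) below background. Usp29 gained a call in 7 settings, Phlda2 at the 90th percentile (0.88) and with the dimmest 25% of genes left out (0.53), and Dio2 in 4 settings. No paired analysis was possible because the series has 1 group.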
